A study of Mus musculus with 2 samples.

Results

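The insulin and IGF signalling genes described here are 10 genes of the 32285 counted, taken by symbol: the receptors Insr and Igf1r, the receptor substrates Irs1 and Irs2, the adaptors Grb10 and Grb14, the ligand Igf1 and the binding proteins Igfbp4, Igfbp5 and Igfbp7. Nuclei were isolated from the interscapular brown adipose tissue (BAT) of male mice aged 8 weeks and measured by snRNA-seq, with RNA molecules counted by their unique molecular identifiers (UMIs). The KO library came from Adipoq-Cre;Srsf1 flox/flox mice, in which the adiponectin promoter drives Cre in mature adipocytes, and the WT library from Srsf1 flox/flox littermates without Cre, so that both groups carry the floxed alleles. Each genotype is a single library, and how many mice went into it is not given in the sources used here. No test or replicate error was therefore possible, every interval below is a 95% interval for counting error only, and a difference between genotypes is also one between libraries.

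Insulin and IGF1 bind related receptor tyrosine kinases, INSR and IGF1R, which phosphorylate the IRS proteins and through them activate PI3K and AKT. In adipocytes this route drives glucose uptake and lipid storage and restrains lipolysis, and brown adipocytes need it for growth and differentiation. GRB10 and GRB14 bind the activated receptors and dampen their signal. IGF1 also acts between neighbouring cells, where IGF binding proteins hold it and proteases such as PAPP-A release it.

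The WT library held 93102814 UMIs in 12846 barcodes and the KO library 80090208 UMIs in 11495 barcodes. After filtering, 12771 WT and 11378 KO nuclei remained, and 52 barcodes occurred in both libraries. Each nucleus was assigned by the summed UMIs of the marker list it exceeded most, of 9 lists that hold none of the genes described here. The 5 classes large enough to compare are adipocyte-like (4745 WT and 1979 KO nuclei), ASPC-like, that is adipocyte stem and progenitor cells (380 and 2102), endothelial-like (2457 and 1170), mural-like (370 and 214) and macrophage-like (378 and 2850), written below without the suffix. All 10 markers of each of these lists were at least 1.5-fold higher in their class than in the other nuclei. The calls were made from these same lists, so this is no independent check of them. A class is a range on a score. In WT 479 and in KO 439 of the called nuclei lay within 1 unit of the limit, and 4279 WT and 2902 KO nuclei stayed without a class.

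Within a class the libraries still differed in make-up. By clustering, 73.4% of the WT adipocytes fell in 1 cluster and 86.2% of the KO adipocytes in another, and the endothelial nuclei were divided likewise, with 62.7% and 82.1%. Adipocyte RNA was also counted in other classes. Ucp1, the uncoupling protein of brown adipocytes, stood at 1756 CPM (UMIs per 1000000 UMIs) in WT adipocytes, at 729 CPM in WT endothelial nuclei and at 1835 CPM in the 2595 WT barcodes with few UMIs and no class. In KO the same values were 57.7, 23.1 and 61.8 CPM. Srsf1 itself, the targeted gene, was 183 CPM in WT and 58.5 CPM in KO adipocytes (log2 ratio of KO to WT -1.64, interval -1.74 to -1.55), and its ratio in the other 4 classes lay between -0.78 and -0.61. In barcodes with few UMIs and no class Srsf1 was 162 CPM in WT and 83.2 CPM in KO (-0.96). The part of such RNA in the ratios of those 4 classes was not tested.

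RefSeq promoter windows of 300 bases, from 250 before to 50 after an annotated start (GRCm38.p6), were found for 9 of the 10 genes and not for Insr. Those of Irs2, Grb14 and Grb10 are shown because these genes differed most between the libraries in adipocytes, the first pair being lower and the last higher in KO. They are written 5′ to 3′ on the gene's strand, with matches to the searched motifs in capitals.

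Irs2, chr8:11008880-11009179, minus strand: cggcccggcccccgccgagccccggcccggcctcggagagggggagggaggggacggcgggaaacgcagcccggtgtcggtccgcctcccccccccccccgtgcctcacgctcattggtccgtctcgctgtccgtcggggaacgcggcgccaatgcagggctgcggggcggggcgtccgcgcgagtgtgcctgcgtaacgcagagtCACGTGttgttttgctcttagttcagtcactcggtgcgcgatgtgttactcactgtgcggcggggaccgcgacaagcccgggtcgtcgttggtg

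Grb14, chr2:65022717-65023016, minus strand: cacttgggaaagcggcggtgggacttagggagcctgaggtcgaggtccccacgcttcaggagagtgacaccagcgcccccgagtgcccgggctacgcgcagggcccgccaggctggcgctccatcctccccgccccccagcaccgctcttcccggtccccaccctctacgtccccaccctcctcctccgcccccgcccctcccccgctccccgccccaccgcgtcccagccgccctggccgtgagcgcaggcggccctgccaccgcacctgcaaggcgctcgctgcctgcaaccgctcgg

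Grb10, chr11:12037371-12037670, minus strand: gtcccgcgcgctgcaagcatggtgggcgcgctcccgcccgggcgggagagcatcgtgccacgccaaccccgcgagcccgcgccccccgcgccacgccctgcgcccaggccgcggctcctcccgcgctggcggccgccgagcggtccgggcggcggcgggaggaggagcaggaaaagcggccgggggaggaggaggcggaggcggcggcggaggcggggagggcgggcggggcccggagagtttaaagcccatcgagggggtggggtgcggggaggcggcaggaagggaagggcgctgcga

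Grb10, second start, chr11:12027922-12028221, minus strand: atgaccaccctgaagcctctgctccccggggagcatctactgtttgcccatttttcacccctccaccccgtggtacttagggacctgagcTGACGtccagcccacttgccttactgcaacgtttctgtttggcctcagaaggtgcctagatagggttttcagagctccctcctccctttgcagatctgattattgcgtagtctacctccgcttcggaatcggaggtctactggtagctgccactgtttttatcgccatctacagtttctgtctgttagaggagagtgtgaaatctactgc

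The motifs searched on both strands were the cAMP response element TGACGTCA and its core TGACG, which overlap, the FOXO site GTAAACA, the E-box CACGTG and the STAT site TTCNNNGAA. Irs2 held 1 E-box, which starts 44 bases before the annotated start and which 7.15% of all 32851 windows contain. The second Grb10 window held 1 core, found in 20.8% of windows. The Irs1 window (chr1:82291390-82291689) held both an E-box and a core that overlapped it. No other window of the 10 genes held any of these letters.

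In adipocytes, 5 of the 10 genes differed at least 2-fold between the libraries. Grb14, Irs2 and Igfbp7 were lower in KO, while Grb10 and Igfbp4 were higher. Among all 15330 genes with at least 50 UMIs in adipocytes, 17.8% were at least 2-fold lower and 19.5% at least 2-fold higher in KO, so that the 3 and 2 of 10 are not many more than the class shows in general. The median log2 ratio was 0.07 for the 10 genes and 0.07 for all genes.

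**Figure D1:**
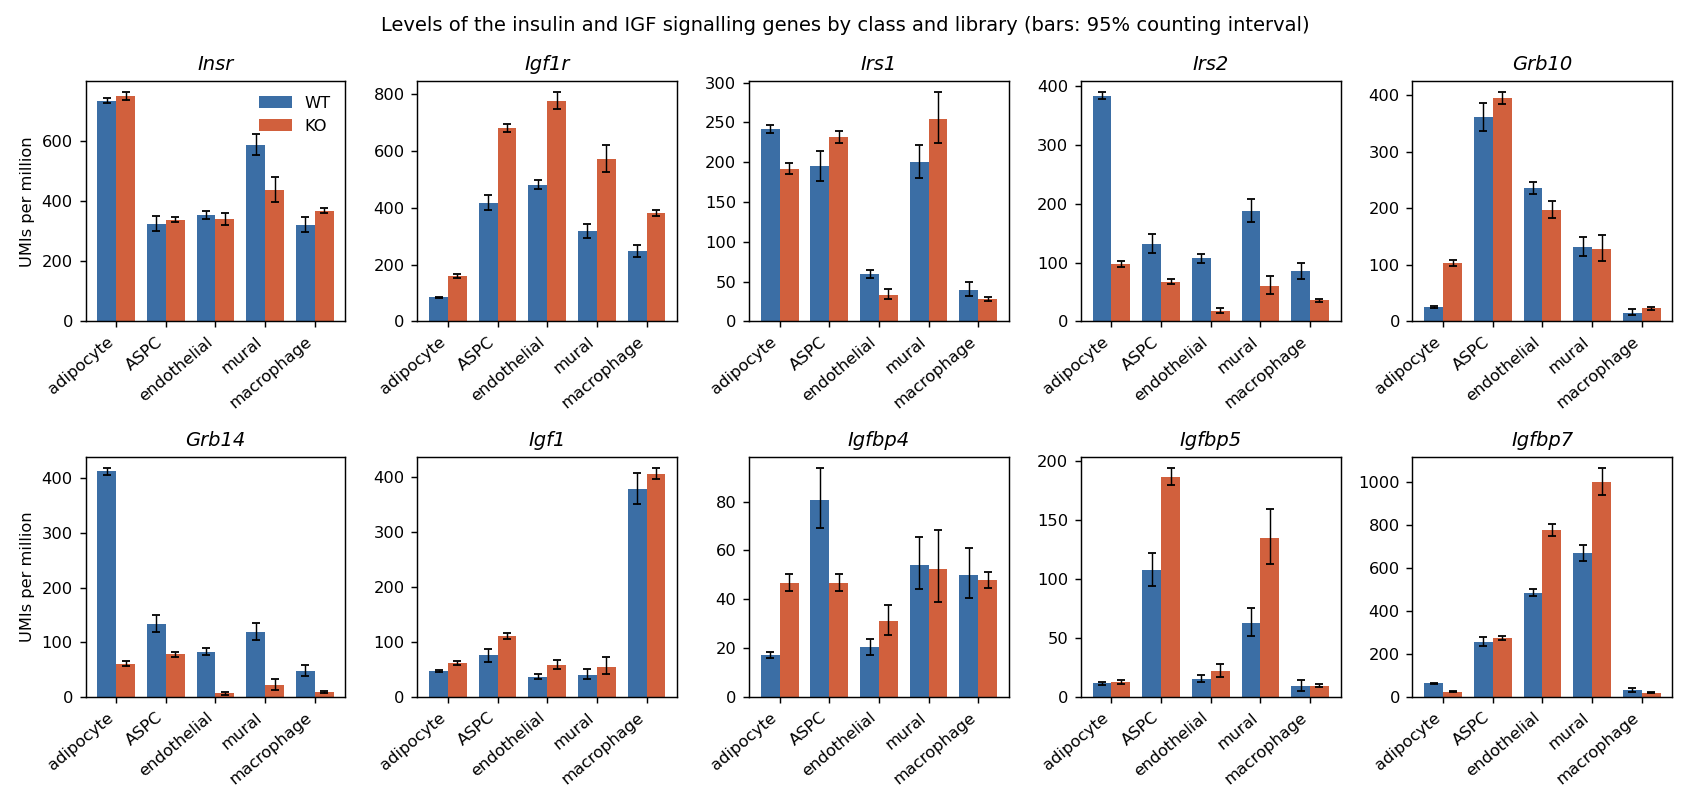
Level of each of the 10 genes (CPM, linear axes from 0) in 5 classes of nuclei, with WT in blue and KO in orange and 95% Poisson counting intervals. Irs2 and Grb14 were highest in WT adipocytes, Igf1 was highest in macrophages of both libraries, and Igf1r was higher in KO in every class.

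Insr lies on the minus strand of chromosome 8 (3122061 to 3279617; GRCm38, GENCODE release M21). Its level in adipocytes was 733 CPM in WT (32664 UMIs) and 747 CPM in KO (12335 UMIs). The log2 ratio of 0.03 (interval -0.00 to 0.06) placed it in the middle of all genes. Adipocytes had the highest level of all 5 classes in both libraries, followed by mural nuclei with 587 CPM in WT and 436 CPM in KO. The remaining classes lay between 322 and 354 CPM in WT and between 338 and 368 CPM in KO, and ASPC and macrophages in WT, and ASPC and endothelial nuclei in KO, did not differ beyond counting error. In mural nuclei Insr was lower in KO (log2 ratio -0.43, interval -0.59 to -0.27), and in the other 4 classes it was within 1.2-fold. Calling whole clusters took the ratio in ASPC to -0.73, and subtraction of the RNA profile of barcodes without a class took it to 0.45 in endothelial nuclei and -0.94 in mural nuclei.

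Igf1r, on the plus strand of chromosome 7 (67952827 to 68233668), behaved otherwise. It was lowest in adipocytes in both libraries and higher in KO in each of the 5 classes. In adipocytes it was 84.7 CPM in WT and 160 CPM in KO, a log2 ratio of 0.92 (0.85 to 0.99), just inside the 2-fold limit, which it passed under 6 of 11 alternatives (range 0.68 to 1.25). In endothelial nuclei it was 481 CPM in WT and 775 CPM in KO (log2 ratio 0.69, 0.61 to 0.76). The ratios in ASPC, mural nuclei and macrophages were 0.70, 0.85 and 0.63. After subtraction of the profile of barcodes with few UMIs and no class, in which Igf1r itself was 184 CPM in WT and 375 CPM in KO, the ratio was 1.14 in adipocytes, 0.61 in ASPC, 0.11 in endothelial nuclei, 0.38 in mural nuclei and 0.51 in macrophages. Between 78.6% and 92.8% of the genes tested in a class had a lower ratio than Igf1r.

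The share of nuclei with an Igf1r UMI was also higher in KO once depth was made equal. After each nucleus had been thinned to 1000 UMIs, 7.23% of WT and 14.1% of KO adipocytes held one, and 34.8% of WT and 48.2% of KO endothelial nuclei. Unthinned, the shares were 32.9% and 43.4% in adipocytes, at median depths of 7092 and 6613 UMIs. In endothelial nuclei they were 57.5% and 67.8%, at 2284 and 2194 UMIs.

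Irs1, the substrate on chromosome 1 (82233101 to 82291416, minus strand), was 242 CPM in WT and 192 CPM in KO adipocytes, a log2 ratio of -0.33 (-0.39 to -0.28). Mural nuclei (200 and 254 CPM) and ASPC (195 and 232 CPM) were slightly higher in KO, while endothelial nuclei (59.4 and 33.5 CPM) and macrophages (40.0 and 27.8 CPM) had little of it in either library. The order of classes turned at the top. In WT adipocytes led, and in KO they stood below mural nuclei and ASPC, which did not differ from each other beyond counting error in either library.

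Irs2, the substrate on chromosome 8 (10984681 to 11008458, minus strand), showed a much larger difference. Adipocytes had 383 CPM in WT (17086 UMIs) and 97.6 CPM in KO (1612 UMIs). KO was 3.93-fold lower (log2 ratio -1.97, -2.05 to -1.90), and only 8.11% of genes had a lower ratio. Thinned to 1000 UMIs, 28.0% of WT and 8.18% of KO adipocytes held a UMI of Irs2, against 68.1% and 36.1% unthinned. The thinned shares in endothelial nuclei were 8.05% and 1.09%.

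The adaptors Grb10 and Grb14, which bind the same activated receptors, went opposite ways in adipocytes. Grb14 (chromosome 2, 64912476 to 65024987, minus strand) was 413 CPM in WT (18408 UMIs) and 61.6 CPM in KO (1017 UMIs), 6.71-fold lower in KO (log2 ratio -2.75, -2.84 to -2.65). Grb10 (chromosome 11, 11930508 to 12038683, minus strand) was 25.8 CPM in WT (1151 UMIs) and 103 CPM in KO (1699 UMIs), 3.98-fold higher in KO (1.99, 1.89 to 2.10). Thinned to 1000 UMIs, 28.8% of WT and 4.60% of KO adipocytes held a UMI of Grb14, and 2.14% of WT and 8.84% of KO adipocytes one of Grb10. Unthinned, these shares were 70.2% and 19.7% for Grb14 and 12.1% and 36.6% for Grb10.

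Grb10 was highest in ASPC in both libraries, with 360 CPM in WT and 394 CPM in KO, followed by endothelial nuclei (235 and 198 CPM) and mural nuclei (131 and 128 CPM). Its ratios there were within 1.2-fold, between -0.25 and 0.13 on the log2 scale. Its macrophage level was low (15.8 and 23.1 CPM). After subtraction of the profile of barcodes without a class the ratio was 3.40 in adipocytes and -1.03 in endothelial nuclei, and calling whole clusters took that in ASPC to 1.48. The ASPC markers summed to 225 CPM in WT and 312 CPM in KO adipocytes, against 7390 and 8754 CPM in ASPC, and their part in the Grb10 difference was not tested. Grb14 was highest in adipocytes in WT, and in KO it was highest in ASPC (78.7 CPM), above adipocytes by a log2 ratio of 0.35 (0.23 to 0.48).

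**Figure D2:**
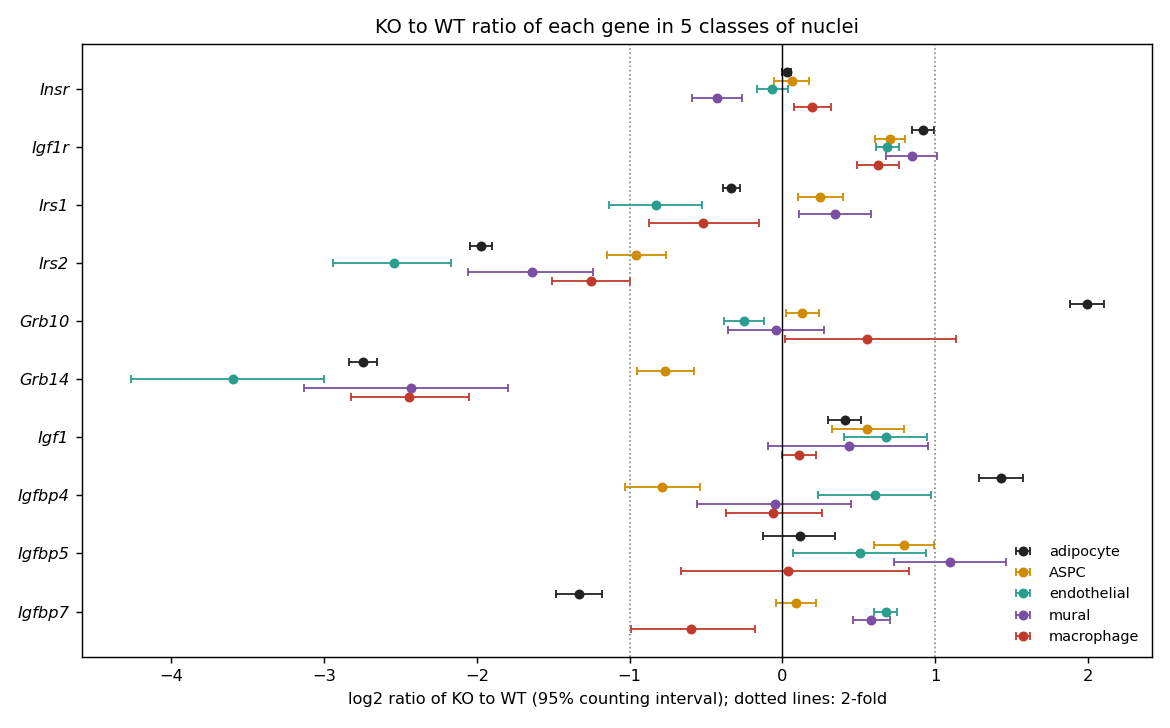
log2 ratio of KO to WT for each of the 10 genes in 5 classes of nuclei, with 95% counting intervals and dotted lines at 2-fold. Grb10 and Igfbp4 lie beyond 2-fold higher in adipocytes only, and Igf1r lies right of 0 in every class. Irs2 and Grb14 lie left of 0 in every class. Outside adipocytes several of the Irs2 and Grb14 ratios turned after subtraction of the profile of barcodes without a class. Those of Grb14 in mural nuclei and macrophages did so only with WT at the floor of 3 UMIs.

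Irs2 and Grb14 also had lower values in KO outside adipocytes, where free RNA may bear on them. In endothelial nuclei Irs2 was 107 CPM in WT and 18.4 CPM in KO (log2 ratio -2.54, -2.94 to -2.17), and Grb14 82.7 and 6.82 CPM (-3.60, -4.27 to -3.00). Mural nuclei gave -1.64 and -2.43 for the 2 genes and macrophages -1.26 and -2.44. In the WT barcodes with few UMIs and no class, Grb14 stood at 213 CPM, and its level in WT endothelial nuclei was 38.7% and in WT macrophages 22.7% of that. For Ucp1 the same percentages were 39.7% and 23.8%. After subtraction of that profile the Irs2 ratio became 0.20 in mural nuclei and -0.28 in macrophages. For Grb14 nothing was left in WT macrophages or WT mural nuclei, so the floor of 3 UMIs stood in for WT. Its values there, 1.58 in macrophages and 2.49 in mural nuclei, are set by that floor and are not measured ratios. In ASPC the ratios became 0.50 for Irs2 and 0.78 for Grb14, and in endothelial nuclei neither gene kept more than the floor of 3 UMIs in either library. Outside adipocytes a lower level in the nuclei and a lower level in the free RNA (in barcodes without a class, Irs2 was 230 and 51.7 CPM and Grb14 213 and 15.1 CPM) cannot be told apart, while in adipocytes the ratios under every alternative tried stayed between -2.11 and -1.88 for Irs2 and between -3.60 and -2.67 for Grb14.

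The other counts by class are given against the same background. In ASPC none of the 10 genes was 2-fold higher or lower, where 7.03% and 10.7% of 12592 genes were. In endothelial nuclei none was higher and 2 were lower (Irs2 and Grb14), against 3.91% and 13.2% of 11497 genes. In mural nuclei 1 was higher, Igfbp5, and the same 2 were lower, against 4.67% and 10.6% of 7533 genes. In macrophages none was higher and the same 2 were lower, against 7.09% and 9.66% of 12292 genes. Over all nuclei, in which the mixture of classes also differs, 4 were higher and 2 lower, against 22.7% and 18.1% of 18258 genes.

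Macrophages had the highest level of the ligand Igf1 (chromosome 10, 87858265 to 87937042, plus strand) in both libraries. It was 377 CPM in WT (717 UMIs, interval 350 to 406 CPM) and 406 CPM in KO (6880 UMIs), which gives a log2 ratio of 0.11 (-0.01 to 0.22). ASPC followed with 75.7 and 111 CPM, and adipocytes had 47.0 and 62.4 CPM. Endothelial nuclei (36.8 and 58.7 CPM) and mural nuclei (40.9 and 55.3 CPM) did not differ from each other beyond counting error in either library. The barcodes with few UMIs and no class held 61.6 CPM in WT and 184 CPM in KO. The levels in adipocytes, endothelial and mural nuclei were below those values in both libraries, and after subtraction the ratio was -0.16 in adipocytes, -0.61 in ASPC and 0.03 in macrophages.

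Which class held the Igf1 UMIs differed much more than the level in any class. Of the 3373 Igf1 UMIs in called WT nuclei, adipocytes held 62.1% and macrophages 21.3% (19.9% to 22.7%). Of the 9861 in called KO nuclei, macrophages held 69.8% (68.9% to 70.7%), ASPC 16.3% and adipocytes 10.4%. Macrophages were 4.45% of called nuclei in WT and 33.6% in KO. Of the UMIs of all genes in called nuclei, adipocytes held 75.6% in WT and 31.0% in KO, macrophages 3.23% and 31.9%, and ASPC 3.69% and 27.1%. Nuclei without a class held a further 1546 WT and 3308 KO Igf1 UMIs.

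Over all nuclei kept, Igf1 was 62.0 CPM in WT and 180 CPM in KO, a log2 difference of 1.54. Had each class kept its WT level and taken only the KO share of UMIs, Igf1 would have been 136 CPM, a log2 difference of 1.14. The same calculation gave 0.49 of an observed 1.20 for Igf1r, 0.67 of 1.03 for Grb10 and 0.86 of 1.61 for Igfbp5. For Irs2 and Grb14 it gave -0.51 of -2.21 and -0.58 of -2.92. In a library of nuclei the shares of classes also depend on which nuclei were recovered.

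**Figure D3:**
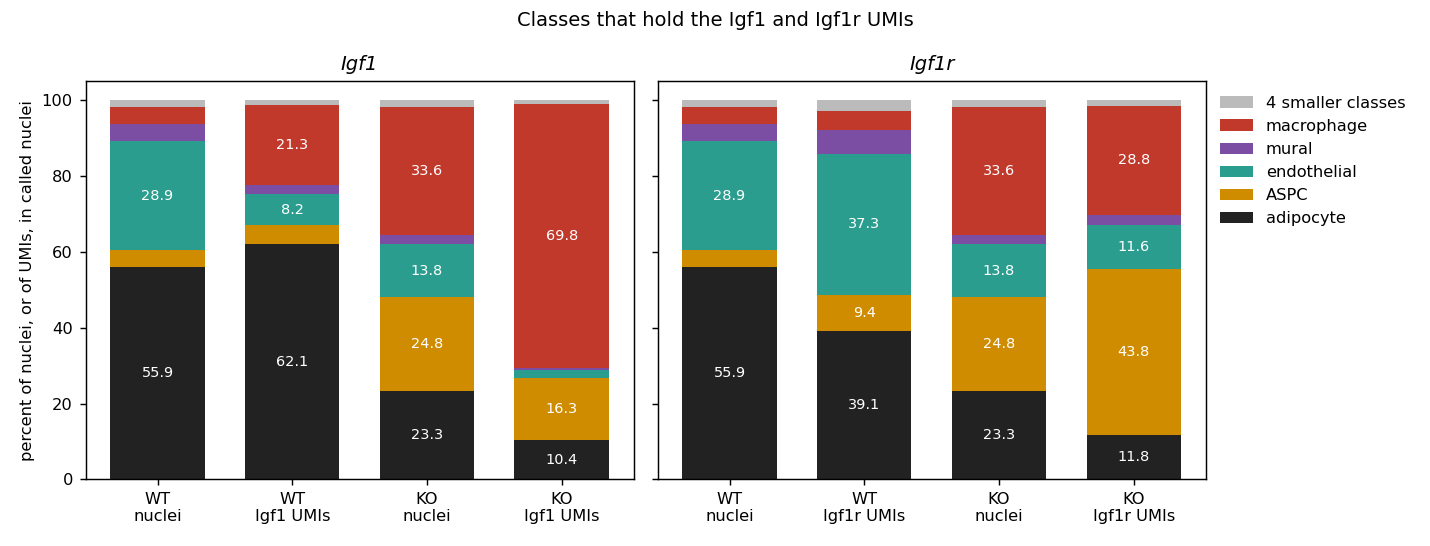
Stacked percentages of called nuclei and of Igf1 (left) or Igf1r (right) UMIs in called nuclei, by class and library. Macrophages were 4.45% of called WT nuclei and held 21.3% of Igf1 UMIs, and were 33.6% of called KO nuclei and held 69.8%.

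The share of macrophage nuclei with an Igf1 UMI was 54.2% in WT (49.1% to 59.3%) and 61.3% in KO (59.5% to 63.1%), where the median nucleus had 4819 and 4462 UMIs. With depth made equal at 1000 UMIs it was 24.7% and 28.8%, with overlapping intervals. In endothelial nuclei, which served as background, the shares were 6.31% and 10.5%, and thinned 2.29% and 4.27%.

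On the receiving side, endothelial nuclei had the highest Igf1r level in both libraries, 5.68-fold above adipocytes in WT and 4.84-fold in KO (log2 2.51 and 2.28). After subtraction of the profile of barcodes without a class, of whose Igf1r level adipocytes had 46.0% in WT and 42.7% in KO, these log2 differences were 4.47 and 3.43. ASPC came next (418 and 680 CPM), then mural nuclei (318 and 572 CPM), macrophages (247 and 381 CPM) and adipocytes, and each step of this order exceeded counting error in both libraries. By number of UMIs, adipocytes and endothelial nuclei held 39.1% and 37.3% of the Igf1r UMIs of called WT nuclei, against 75.6% and 12.7% of the UMIs of all genes. In KO, ASPC held 43.8% and macrophages 28.8%, against 27.1% and 31.9% of the UMIs of all genes.

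States within the classes were separated by short marker lists. Resident macrophage markers (Lyve1, Cd163, F13a1, Folr2, Timd4) picked out 182 WT and 904 KO nuclei, and lipid-associated macrophage markers (Gpnmb, Atp6v0d2, Mmp12, Trem2, Spp1) 28 and 645. Igf1 was high in both, at 404 CPM in WT and 484 CPM in KO resident macrophages and at 492 and 444 CPM in lipid-associated ones. The 2 states differed by a log2 of -0.13 (-0.21 to -0.04) in KO and not beyond counting error in WT. Igf1r was lower in lipid-associated than in resident macrophages, with 293 against 496 CPM in KO and 174 against 289 CPM in WT. Igfbp4 showed a wider gap in KO, with 25.0 against 89.7 CPM.

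In ASPC, stem markers (Dpp4, Pi16, Cd55, Sema3c, Anxa3) picked out 88 WT and 677 KO nuclei and preadipocyte markers (Cyp7b1, Frem1, Col15a1, Icam1, Cyp1b1) 71 and 544. Igf1r was higher in stem than in preadipocyte nuclei, with 488 against 393 CPM in WT and 848 against 560 CPM in KO. Igfbp5 followed the same order (176 against 79.0 CPM in WT and 284 against 148 CPM in KO). Igfbp7 followed the reverse order, with 122 against 273 CPM in WT and 92.6 against 391 CPM in KO. Grb14 was 145 CPM in WT and 117 CPM in KO preadipocyte nuclei, and 88.1 and 18.8 CPM in stem nuclei. The WT stem value rests on 50 UMIs. In barcodes with few UMIs and no class, Grb14 was 213.5 CPM in WT, above both WT values, and 15.1 CPM in KO.

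Among adipocytes, 234 WT and 598 KO nuclei carried the white adipocyte markers Slc7a10, Lep, Npr3 and Sncg. In WT these nuclei already had more Grb10 than the other adipocytes (85.5 against 22.1 CPM), more Igf1 (143 against 41.1 CPM), more Igfbp4 (65.8 against 14.4 CPM) and more Irs1 (394 against 232 CPM). In KO the gap narrowed for Grb10, with 121 against 91.0 CPM. Igf1 in white-marker nuclei was 143 CPM in WT and 91.8 CPM in KO, and in the other adipocytes 41.1 and 43.1 CPM. Grb14 was lower in KO in both, from 301 to 103 CPM in white-marker nuclei and from 420 to 34.6 CPM in the rest. With white-marker nuclei left out, an alternative chosen after the data had been seen, the same 5 genes remained beyond 2-fold, with ratios of 2.04 for Grb10, 1.42 for Igfbp4, -1.61 for Igfbp7, -2.11 for Irs2 and -3.60 for Grb14.

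**Figure D4:**
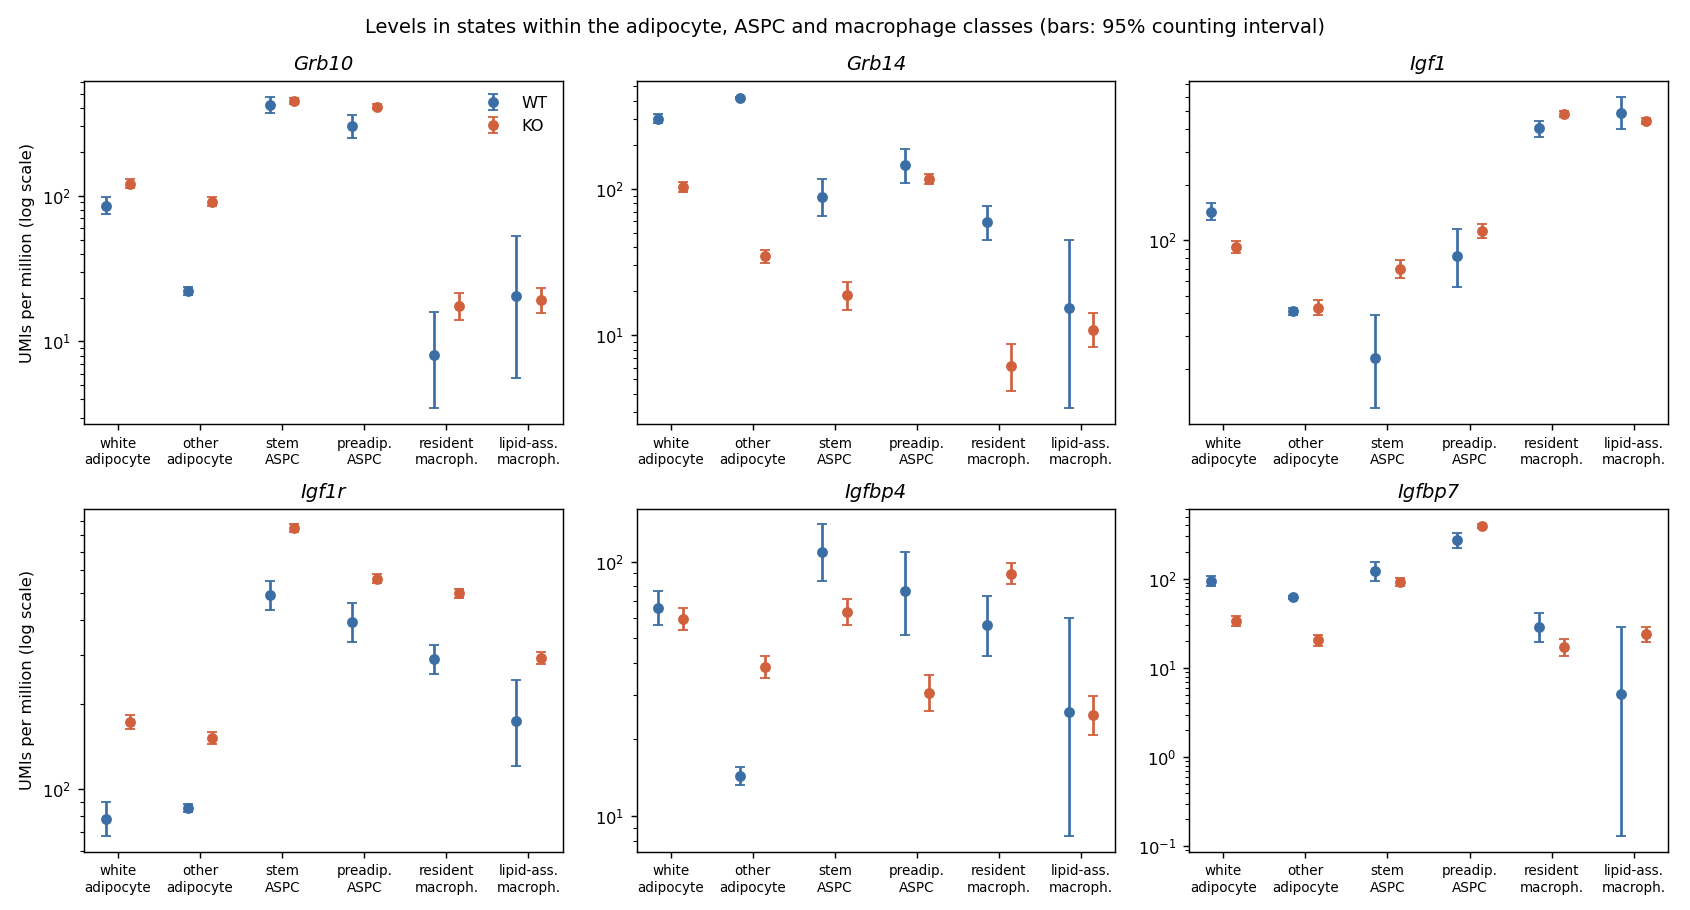
Level of 6 genes (CPM, log axes) in 2 states each of adipocytes, ASPC and macrophages, WT in blue and KO in orange, with 95% Poisson counting intervals. Grb10 and Igfbp4 in WT were higher in white-marker than in other adipocytes, and Igf1 was high in both macrophage states.

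Igfbp7 and Igfbp5 were highest in different classes, while Igfbp4 shared the highest class of Igfbp5 in WT. Igfbp7 (chromosome 5, 77349240 to 77408041, minus strand) was highest in mural nuclei, with 669 CPM in WT and 1001 CPM in KO, and next in endothelial nuclei, with 487 and 777 CPM. Both classes were higher in KO, with log2 ratios of 0.58 (0.46 to 0.70) and 0.67 (0.60 to 0.75). In adipocytes Igfbp7 was 64.3 CPM in WT and 25.6 CPM in KO, 2.51-fold lower in KO (-1.33, -1.48 to -1.18). Endothelial markers, which summed to 379 CPM in WT and 99.1 CPM in KO adipocytes, moved the same way, and their part was not tested. Leaving the most abundant marker out of each list took the ratio to -0.86 and calling whole clusters to -0.95. Subtracting the profile of barcodes without a class left no Igfbp7 in KO adipocytes. The value of -7.27 under that setting is set by the floor of 3 UMIs put in for KO and is not a measured ratio. The adipocyte level was 40.3% of the level in WT barcodes without a class and 15.4% of it in KO.

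Igfbp5 (chromosome 1, 72857932 to 72874884, minus strand) was highest in ASPC, with 108 CPM in WT and 187 CPM in KO (log2 ratio 0.79, 0.60 to 0.99). That ratio passed 2-fold under 3 of 10 alternatives and was 2.37 with whole clusters called. In mural nuclei Igfbp5 was 63.0 CPM in WT (120 UMIs) and 135 CPM in KO (134 UMIs), 2.14-fold higher (1.10, 0.73 to 1.46). A stricter lead for the class call took this ratio to -0.070. In barcodes with few UMIs and no class, Igfbp5 was 43.6 CPM in WT and 114 CPM in KO. In adipocytes (11.7 and 12.7 CPM), endothelial nuclei (15.7 and 22.3 CPM) and macrophages (9.46 and 9.73 CPM) it was low.

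Igfbp4 (chromosome 11, 99041244 to 99054392, plus strand) was 17.4 CPM in WT and 46.9 CPM in KO adipocytes, 2.70-fold higher (1.43, 1.29 to 1.58). The adipocytes with white markers, which were 598 of 1979 in KO and 234 of 4745 in WT, had 65.8 CPM in WT and 59.5 CPM in KO (-0.14, -0.41 to 0.12), and the other adipocytes 14.4 and 38.6 CPM. In ASPC, its highest class in WT, it was 80.8 CPM in WT and 46.8 CPM in KO (-0.79, -1.03 to -0.54), and calling whole clusters took that ratio to 0.26. In KO adipocytes, macrophages, mural nuclei and ASPC had levels between 46.8 and 52.3 CPM that did not differ between neighbours beyond counting error. In barcodes with few UMIs and no class, Igfbp4 was 36.0 CPM in WT and 66.8 CPM in KO, above all of these KO levels. Adipocytes had 48.3% of that level in WT and 70.1% in KO, and after subtraction of this profile their ratio was 1.91.

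The wider insulin and IGF pathway was read through a list of 93 genes that includes the 10. In adipocytes 81 of them had at least 50 UMIs, of which 12 were at least 2-fold higher, 11 at least 2-fold lower and 58 within 2-fold. These are 14.8% and 13.6%, below the 19.5% and 17.8% of all genes, and the list's median log2 ratio was 0.11 against 0.07 for all genes. No mTOR gene (of 14) and no gene of the MAPK arm (of 8) passed 2-fold either way.

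The largest differences stood in the growth hormone axis and among the brakes on AKT. Cish, an inhibitor of cytokine receptors that growth hormone induces through STAT5, was 48.8 CPM in WT (2178 UMIs) and 0.545 CPM in KO adipocytes (9 UMIs), a log2 ratio of -6.49 (-7.62 to -5.56). Socs2, which growth hormone also induces, was 12.7 and 1.82 CPM (-2.81, -3.39 to -2.28). The growth hormone receptor gene Ghr was 3364 and 2601 CPM (-0.37), and Stat5b was 137 and 296 CPM (1.11). Trib3, a pseudokinase that binds AKT and is induced by the integrated stress response, was 1.35 CPM in WT (60 UMIs) and 65.6 CPM in KO (1084 UMIs), a log2 ratio of 5.61 (5.23 to 6.01).

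Among the proteins that release or hold IGF1 in adipocytes, the protease gene Pappa was 13.6 CPM in WT and 2.18 CPM in KO (log2 ratio -2.64, -3.17 to -2.15). Stc2, which encodes an inhibitor of that protease, was 0.336 and 5.33 CPM (15 and 88 UMIs; 3.99, 3.19 to 4.88). Igfbp3 was 2.51 and 0.605 CPM (112 and 10 UMIs; -2.05). Of the 4 ligand genes of the list only Igf1 passed 50 UMIs in adipocytes. Igf2 had 30 UMIs in WT and 4 in KO, and Ins1 and Ins2 had none in either library.

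Downstream of the receptors, Pik3r1, the main regulatory subunit of PI3K, was 611 CPM in WT and 286 CPM in KO adipocytes (-1.09), and Foxo1, the transcription factor that AKT holds out of the nucleus, 1389 and 500 CPM (-1.47). Pde3b, the phosphodiesterase through which insulin restrains lipolysis, was 3301 and 1608 CPM (-1.04). Slc2a4, which encodes the insulin-responsive glucose transporter GLUT4, was 86.1 and 45.0 CPM (-0.93), within 2-fold. Srebf1 (48.9 and 110 CPM; 1.17) and Grb2 (67.2 and 135 CPM; 1.00) were higher in KO. Sh2b1, an adaptor of the insulin receptor, was lower (47.5 and 18.7 CPM; -1.34).

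Another 3 of the 12 higher genes, Pik3cd, Pik3cg and Inpp5d, are known mainly from blood cells, with log2 ratios of 1.85, 1.39 and 1.23. Macrophage markers summed to 94.8 CPM in WT and 227 CPM in KO adipocytes, against 4633 and 4283 CPM in macrophages, and their part in these 3 ratios was not tested.

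**Figure D5:**
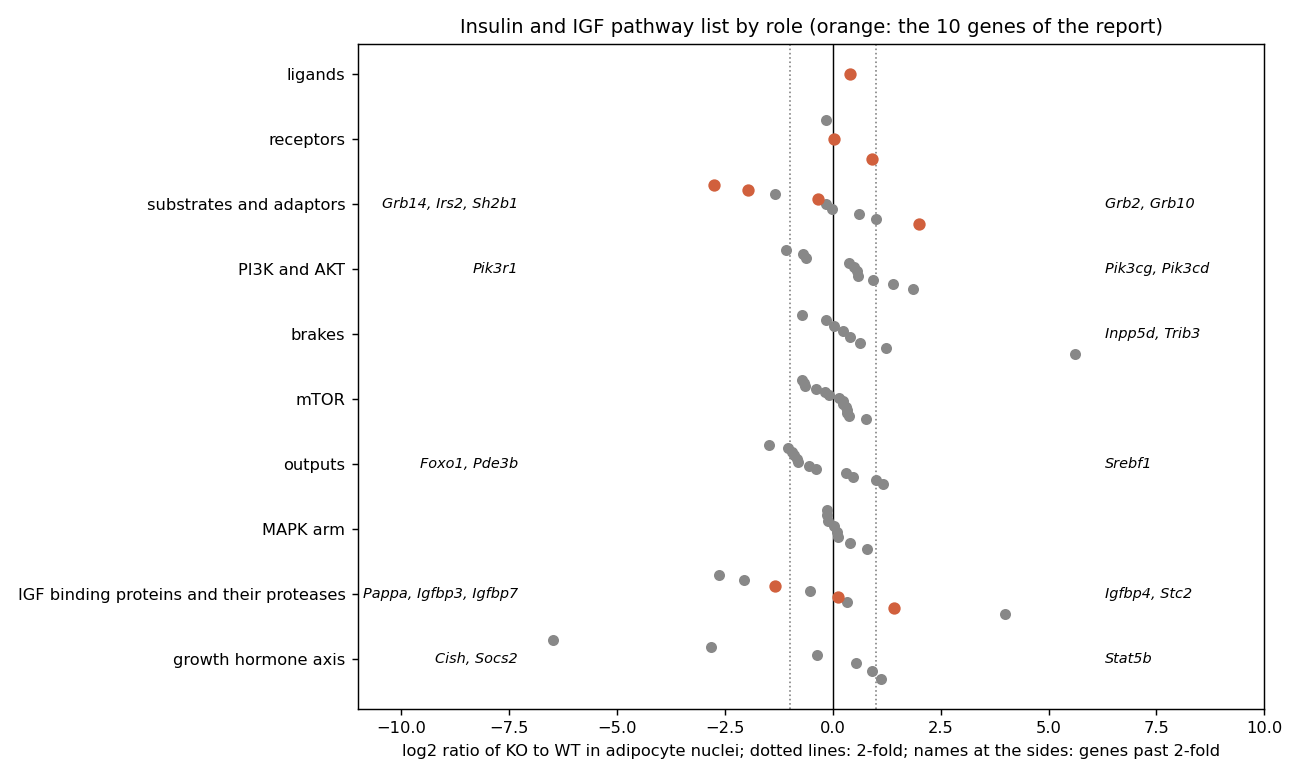
log2 ratio of KO to WT in adipocytes for genes of the pathway list with at least 50 UMIs, by role, with the 10 genes described here in orange and those plotted beyond 2-fold named at the sides. Cish (-6.49) and Trib3 (5.61) lie farthest out, and the mTOR and MAPK genes stay within 2-fold.

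In ASPC 5 genes of the list were higher and 6 lower of 79 (6.33% and 7.59%, against 7.03% and 10.7% of all genes). In endothelial nuclei 4 and 11 of 79 were (5.06% and 13.9%, against 3.91% and 13.2%), and in mural nuclei 5 and 11 of 68 (7.35% and 16.2%, against 4.67% and 10.6%). In macrophages 1 and 7 of 77 were (1.30% and 9.09%, against 7.09% and 9.66%). The list's median log2 ratio lay between 0.04 and 0.07 in these 4 classes and that of all genes between -0.02 and 0.07. The 1 higher gene in macrophages was Trib3, with 1 UMI of 1901822 in WT and 165 UMIs of 16964256 in KO. Trib3 was 65.6 CPM in KO adipocytes, and Ucp1 was 57.7 CPM in KO adipocytes and 13.4 CPM in KO macrophages. The part of adipocyte RNA in the macrophage value of Trib3 was not tested.

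The genes whose levels ran most closely with each of the 10, over the 10 points given by 5 classes in 2 libraries, were found among 14106 genes outside the marker lists. The points of a library share its depth and free RNA, so the correlations are descriptions only. Igf1 ran closest with Wdfy2 (Pearson r = 0.99) and Snx24 (0.99), Igf1r with Bbs9 (0.96), and Insr with Ube2b (0.97) and Ddo (0.97). Irs1 ran with Sox5 (0.99) and Bmpr1a (0.98), and Irs2 with Acat1 (0.98) and A530065N20Rik (0.98). Grb10 ran with Osmr (0.98) and Atp8b1 (0.97), and Grb14 with Slc4a4 (0.98) and Pabpc4 (0.97). Igfbp4 ran with 5830408C22Rik (0.91) and Anxa1 (0.91), Igfbp5 with Dbn1 (0.99) and Gli3 (0.98), and Igfbp7 with Jam3 (0.98) and Pear1 (0.98).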

How the data were processed

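Nuclei from BAT were processed with the 10x Genomics 3′ v3.1 chemistry. The authors deposited raw UMI counts of 32285 genes per library. Cell Ranger 5.0.0 (file headers), Seurat 3.1.1 and the mm10 (GRCm38) genome stand in the submitters' processing notes. The study's methods name an earlier Cell Ranger version, and whether intronic reads were counted is not given in the sources used here. UMIs in introns raise the counts of long genes, so levels were compared within a gene only.

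Barcodes with at least 200 genes, at most 10% mitochondrial UMIs and UMI and gene totals within 3 median absolute deviations were kept, leaving out 75 WT and 117 KO barcodes. Each nucleus was scored per marker list as (sum - e) / sqrt(e + 1), where e is 50% of the list's mean share over both libraries times the nucleus total, and called where the best score was at least 3, at least 2 times the next, with 2 markers detected. This scoring rule was settled after the data were seen. No doublet caller was run. The 1385 WT and 1140 KO nuclei that passed the limit on the best score but did not lead enough were left without a class, as mixed nuclei would be. Within classes, states needed a score of 2.

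UMIs were summed per class and library and divided by the class total, times 1000000 (CPM). Poisson, conditional binomial (log2 ratios) and Clopper-Pearson (shares) intervals at 95% were exact and cover counting error only. Genes with at least 50 UMIs over both libraries in a class were counted, and 2-fold was the limit. With 1 library per genotype no test was made. For equal depth, nuclei were thinned to 1000 UMIs, leaving out shallower ones (113 WT and 22 KO adipocytes, 98 and 69 endothelial nuclei, 10 and 59 macrophages). Barcodes with under 1500 UMIs and no class gave the profile taken as free RNA. They had passed the filter for nuclei, so some may be shallow nuclei. Estimates of the profile's share in a class differed, and for WT endothelial nuclei were 69.8% by markers of other classes and 39.7% by Ucp1. For WT mural nuclei they were 74.2% and 44.5%. The values given after subtraction used the estimate by markers of other classes, and ratios outside adipocytes depend on that choice. The 10 genes, all lists and the 2 genes named as most like each were chosen or fixed as rules with earlier results of these data known. In the pathway list the genes beyond 2-fold in adipocytes were named, except some that enter the counts but are not reported here by name, in the text, the plot or among the most like genes. Ghr, Slc2a4, Igf2, Ins1 and Ins2, which were not, were named after their values were seen. Scripts used Python 3.11.15, numpy 2.4.6, scipy 1.17.1, pandas 2.3.3 and scanpy 1.11.5, and were tested on simulated data.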

Additional observations from a re-analysis of the deposited data

Results flagged for a closer look

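Of the 10 genes, 3 differed at least 2-fold between the libraries in adipocytes and in the opposite direction, with a counting interval apart from 0, in another class. None of these differences between classes was tested, since each class comes from the same pair of libraries. The log2 ratio of Grb10 in adipocytes exceeded that in endothelial nuclei by 2.25, and that of Igfbp4 in adipocytes exceeded that in ASPC by 2.22. For Igfbp7 the difference was -2.003 between adipocytes and endothelial nuclei and -1.91 between adipocytes and mural nuclei.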

How the results depend on the processing

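No paired analysis was possible because there was 1 library per genotype, which also left no replicate to leave out. Depth limits the KO mural nuclei most (214 nuclei, 994892 UMIs), followed by the WT mural nuclei, macrophages and ASPC (370 to 380 nuclei each). Of 500 ratios recomputed for the 10 genes, 350 stayed within the counting interval, 146 moved beyond it and 4 that were past 2-fold turned. The counts of 2-fold differences in adipocytes (2 higher and 3 lower of the 10, 12 and 11 of the pathway list) stayed within 1.5 times under every alternative. The cause of the other shifts was not tested.

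Subtracting the profile of barcodes without a class turned the ratio of Irs2 in mural nuclei to 0.20, of Grb14 there to 2.49 and of Grb14 in macrophages to 1.58, and a stricter lead turned Igfbp5 in mural nuclei to -0.070. Both Grb14 values rest on the floor of 3 UMIs put in for WT. In ASPC, where none of the 10 was past 2-fold, 1 was higher with the most abundant marker left out, 3 with whole clusters called and 1 by the mean over nuclei, and 1 was lower with a stricter lead, 1 with the marker left out, 2 with clusters and 1 after subtraction. In endothelial nuclei 1 was higher with clusters and 1 lower after subtraction. In mural nuclei 2 were higher with the marker left out, 3 with clusters and 0 after subtraction, which left 1 lower. These counts take only genes with at least 50 UMIs over both libraries in a class, so the turned Grb14 in mural nuclei is not among them. In macrophages 1 was higher (Grb14, with WT at the floor) and 0 lower after subtraction. There 4 were lower with fixed limits, with the deepest nuclei left out and by the mean over nuclei.

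The macrophage share of Igf1 UMIs in WT was 18.6% without a filter, 28.4% with fixed limits, 24.6% with a stricter lead, 19.0% with clusters, 32.3% without the deepest nuclei, 22.9% by the mean over nuclei and 30.9% after subtraction. In KO it was 72.8% with fixed limits, 75.0% with a stricter lead, 66.0% with the marker left out, 78.6% with clusters, 75.5% without the deepest nuclei, 71.4% by the mean and 85.8% after subtraction. The log2 of endothelial over adipocyte Igf1r in WT was 2.21 without a filter, 2.89 with fixed limits, 2.88 with a stricter lead, 2.44 with the marker left out, 2.89 with clusters, 2.94 without the deepest nuclei, 2.68 by the mean and 4.47 after subtraction. In KO it was 2.47, 2.42 and 2.17 under fixed limits, stricter lead and marker left out, 2.37 with clusters, 2.55 without the deepest nuclei, 2.51 by the mean and 3.43 after subtraction.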
